A study of Mus with 8 samples.

Results

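Adipokines are signalling proteins that fat tissue secretes. The 9 adipokine genes described here are Adipoq (adiponectin), Lep (leptin), Retn (resistin), Cfd (complement factor D, also called adipsin), Rarres2 (chemerin), Nampt (visfatin), Rbp4 (retinol binding protein 4), Agt (angiotensinogen) and Angptl4 (angiopoietin-like 4). They were taken by name from the table of read counts, and all 9 were found among its 24013 genes. RNA came from the mouse preadipocyte line 3T3-L1, which can be induced to become fat cells, and was sequenced on the Ion Torrent system. C cells carried a scrambled shRNA and P cells an shRNA against the homeodomain transcription factor Prep1, each delivered with a pLKO.1 lentivirus and followed by puromycin selection. Both kinds of cell therefore went through infection and selection, and the P cells rest on a single shRNA. Cells of day −2 had not been induced and are called uninduced. Cells of day 1 are called induced and had received 1 μM dexamethasone (a glucocorticoid), 0.5 mM IBMX (which raises cAMP) and 1 μg/ml insulin. Growth medium held BCS (calf serum) and induction medium FBS (fetal serum), and no uninduced cells of day 1 were sequenced. The hormones, the serum and the time in culture therefore cannot be told apart, and induction stands here for all of them together. There were 2 replicas in each of the 4 conditions, which are uninduced C, uninduced P, induced C and induced P cells. The labels and methods do not give clones. The p-values measure only the spread between libraries within conditions, pooled over the 4 conditions and moderated between genes.

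The adipokine genes are switched on at different stages and are not all restricted to fat. Adiponectin, adipsin, resistin and leptin are products of mature fat cells, driven in large part by PPARγ and the C/EBP factors, and leptin is made mainly by cells loaded with lipid. Angiotensinogen and chemerin are also made in quantity by the liver, and Angptl4 and Nampt are expressed in many tissues. Adiponectin acts through AdipoR1, AdipoR2 and T-cadherin on glucose and lipid metabolism, angiotensinogen is the substrate of renin, adipsin cleaves complement factor B, and Angptl4 inhibits lipoprotein lipase.

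The libraries held between 20428816 and 27614353 counts. With this depth, 3 counts of a gene equal 0.107 to 0.160 CPM, which are counts divided by the library size after TMM scaling, a limit that covers counting error only. The level of Prep1 (Pknox1 in the table, NCBI gene 18771) was 27.3 ± 1.16 CPM before induction in C cells, against 17.8 ± 0.739 in P cells (SD, n = 2), which is a ratio of −0.62 on the log2 scale (SE 0.14, adjusted p = 0.0558, edgeR). After induction the levels were 37.3 ± 1.11 and 23.7 ± 0.125 CPM (SD, n = 2), with a ratio of −0.65 (SE 0.14, adjusted p = 0.0575). Neither fall reached the ratio of 0.5 that is required below for a call. With a library left out, the log2 ratio ranged from −0.67 to −0.57 before and from −0.70 to −0.65 after induction. The replicas of uninduced P cells lay farthest apart, with an SD of 0.795 for the log2 difference over 5600 abundant genes, against 0.121 to 0.261 in the other conditions. The 10 preadipocyte and fibroblast markers all passed the filter on low counts, and their summed level was between 13042 and 63112 CPM, highest in replica 1 of uninduced P cells. Of the 9 macrophage and leukocyte markers 4 passed, and the summed level of the list was between 9.02 and 24.0 CPM. Ptprc and Adgre1 had at most 8 and 4 counts in a library. Others were detected, at 1.92 to 3.95 log2 CPM (prior count 2) for Cd14 and 0.13 to 2.42 for Cd68. Csf1r had 2.54 and 2.34 in uninduced C cells and −1.19 and −2.30 in induced C cells. In P cells it had 1.15 and 0.69 before induction and −1.38 and −1.46 after it. Cd14 was lower in uninduced P (2.57 and 2.17) than in uninduced C cells (3.95 in both). Lyz2 went the other way, with 0.80 and 2.20 in uninduced P and −1.46 and −2.53 in uninduced C cells. The summed levels of the endothelial, epithelial and hepatocyte, and muscle markers were at most 2.66, 3.43 and 8.57 CPM. In bulk RNA, more cells of a kind and more RNA per cell cannot be told apart.

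Of the 9 adipokine genes, 7 passed the filter on low counts and were tested among 13339 genes. Nampt, Agt and Angptl4 were above the filter level of 0.428 CPM in both libraries of every condition, Adipoq, Cfd and Retn only in induced P cells, and Rarres2 in P cells at both days. Lep and Rbp4 did not pass. Genes were called from edgeR's quasi-likelihood test at a Benjamini-Hochberg adjusted p under 0.1 together with a ratio above 2 or below 0.5. Every call of an adipokine gene in the 4 comparisons was in the direction of higher RNA. Induction of C cells called 2 of the 7 tested (Agt and Rarres2), where 20.4% of all genes were called, 10.7% higher and 9.68% lower. Induction of P cells called 4 (Adipoq, Cfd, Retn and Agt), where 18% of all genes were called, 7.65% higher and 10.4% lower. In P against C cells, 3 were called at day −2 (Adipoq, Rarres2 and Agt), where 6.98% of all genes were called, 4.83% higher and 2.15% lower. At day 1 there were 2 (Adipoq and Cfd), where 4.06% of all genes were called, 1.83% higher and 2.23% lower. The median log2 ratio of the 7 genes in these 4 comparisons was 0.84, 2.72, 1.05 and 0.75, against medians of −0.01, 0.02, 0.01 and 0.01 over all genes. Since genes silent outside a condition could pass the filter through that condition alone, these counts describe the genes and are no evidence about the group. The comparisons share libraries and are not independent of each other.

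Whether P cells responded to induction differently from C cells was tested as an interaction, for which an adjusted p under 0.1 sufficed. This test called Adipoq, which responded more in P cells, and Agt, which responded less. Over all genes this test called 2.37%, 0.435% higher and 1.93% lower. Scaling by library totals in place of TMM moved the median of all genes by up to 0.29 on the log2 scale (−0.11, 0.19, −0.18, 0.11 and 0.29 in the order above), and moved the share of calls that were higher from 42.4% to 54.5% for induction of P cells, from 69.2% to 55.4% for uninduced P against uninduced C cells and from 18.4% to 31.6% for the interaction.

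**Figure D1:**
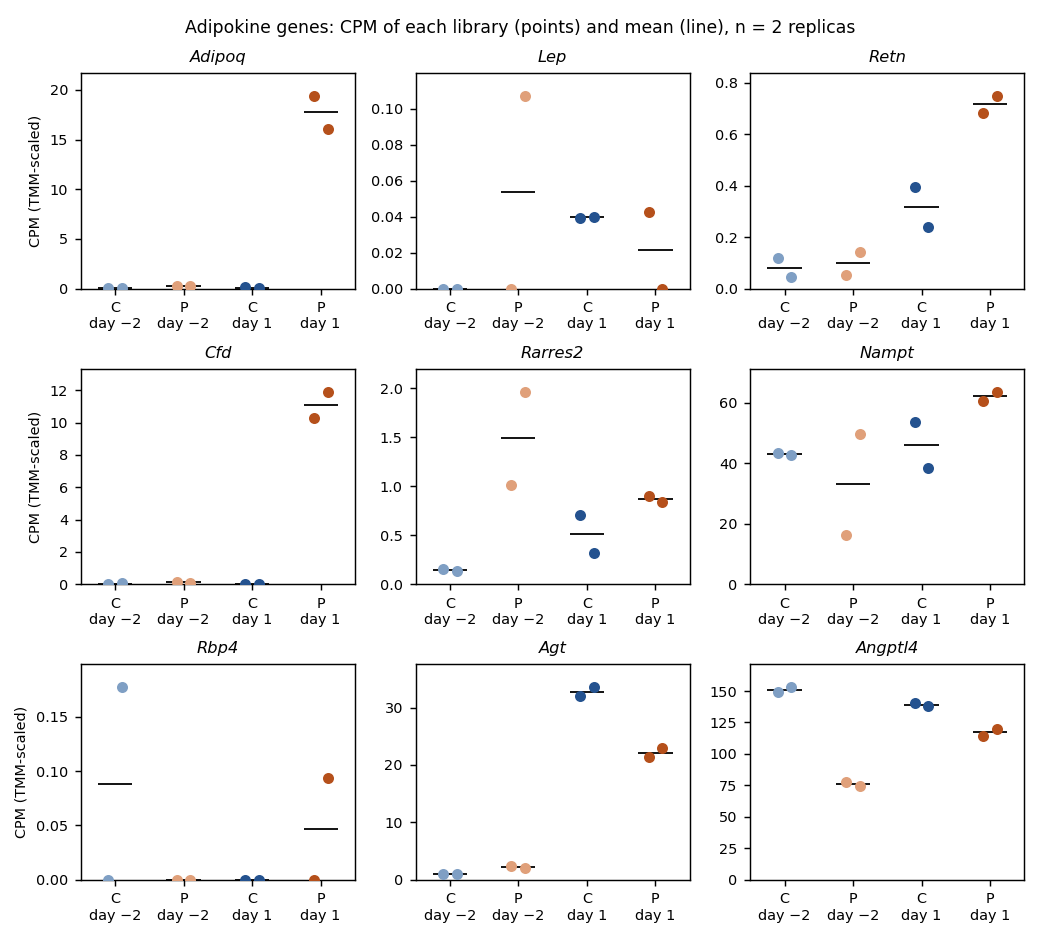
Level of the 9 adipokine genes in each of the 8 libraries, with 1 panel per gene and the 4 conditions along the horizontal axis. Points are single libraries and short lines the means, and the vertical axes show TMM-scaled CPM on scales that differ between panels. Adipoq and Cfd are near 0 except in induced P cells, at 16.1 to 19.4 and 10.3 to 11.9 CPM, and Agt is above 21 CPM in all 4 libraries of day 1.

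Adiponectin and adipsin RNA was nearly absent from uninduced cells and from induced C cells, and was present in induced P cells. Adipoq (NCBI gene 11450) had 1 and 1 counts in the replicas of uninduced C cells, 5 and 7 in uninduced P cells, 3 and 1 in induced C cells, and 453 and 345 in induced P cells. Both libraries of induced P cells stand far above the other 6, and the uninduced P libraries lie above all 4 C libraries, at few counts. In CPM, induced P cells had 17.7 ± 2.30 (SD, n = 2) and induced C cells 0.0791 ± 0.0556 (SD, n = 2).

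Between induced P and C cells the log2 ratio of Adipoq was 7.71 (SE 0.40, adjusted p = 8.5e-04), and the 798 and 4 summed counts gave a ratio of 225, with an exact 95% counting interval from 87.4 to 826. Induction raised it in P cells by a log2 ratio of 6.08 (SE 0.35, adjusted p = 1.6e-04), from 12 to 798 summed counts, a ratio of 69.5 (39.5 to 135.0). In C cells the change was 0.84 (SE 0.72, adjusted p = 0.598), from 2 to 4 summed counts. The interaction was 5.24 (SE 1.08, adjusted p = 0.0939). It was lost without any of the 4 C libraries or either induced P library, at 0.144 to 0.604.

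Before induction, Adipoq was also called higher in P than in C cells, with a log2 ratio of 2.47 (SE 0.59, adjusted p = 0.0641). This rests on 12 against 2 summed counts, a ratio of 6.11 with a counting interval from 1.36 to 56.2, wider than the SE implies. The call was lost in DESeq2 (adjusted p = 0.113), without either uninduced C library (0.371 and 0.340) and without either induced P library (0.153 and 0.150). The gene did not pass the filter when the 4 libraries of day −2 were fitted alone.

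Cfd (NCBI gene 11537) encodes the serine protease of the alternative complement pathway that is named adipsin after the fat cells that secrete it. It had 0 and 1 counts in uninduced C cells, 3 and 2 in uninduced P cells, 0 and 0 in induced C cells, and 240 and 255 in induced P cells. As for Adipoq, only the 2 libraries of induced P cells held more than a few counts. Their level was 11.1 ± 1.17 CPM (SD, n = 2), which is at least 93.2-fold higher than in induced C cells, taking 3 counts per library as the upper limit of a count of 0 (adjusted p = 0.00374, edgeR). Induction of P cells raised Cfd by a log2 ratio of 6.61 (SE 0.55, adjusted p = 0.00111), a ratio of summed counts of 103 with an interval from 44.0 to 320. At day −2, 5 counts in P cells stood against 1 in C cells, a ratio of 5.09 with an interval from 0.570 to 241 (adjusted p = 0.260). The interaction had an adjusted p of 0.193 in edgeR and 0.00763 in DESeq2. Its size has no fixed value because induced C cells held 0 counts. The calls of Adipoq and Cfd at day 1 between P and C cells, and by induction of P cells, held in every alternative in which the genes were tested, each library left out included.

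Resistin, another protein of mature mouse fat cells, was detected at a few counts. Retn (NCBI gene 57264) had 3 and 1 counts in uninduced C cells, 1 and 4 in uninduced P cells, 10 and 6 in induced C cells, and 16 and 16 in induced P cells. The order of the conditions by level thus began with the uninduced cells, whose C and P libraries overlap, and ended with induced P cells, whose 2 libraries lie above all others. Induction of P cells raised Retn by a log2 ratio of 2.72 (SE 0.69, adjusted p = 0.0351), from 5 to 32 summed counts. This call was lost when the 4 P libraries were fitted alone (adjusted p = 0.120) and without either induced P library (0.156 and 0.180). In C cells the log2 ratio was 1.86 (SE 0.75, adjusted p = 0.115), from 4 to 16 summed counts. Without replica 1 or 2 of uninduced P cells it was 1.88 and 1.86. Among induced cells it was 1.16 for P against C (SE 0.60, adjusted p = 0.422), a ratio of summed counts of 2.25 with a counting interval from 1.20 to 4.39. At day −2 it was 0.30 (SE 0.87, adjusted p = 0.829).

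Leptin, the hormone through which fat stores signal to the brain, and Rbp4, the carrier of retinol in plasma, were at or near 0. Lep (NCBI gene 16846) had 6 counts in all, which were 3 in replica 2 of uninduced P cells and 1 each in both C libraries of day 1 and in replica 1 of induced P cells. Rbp4 (NCBI gene 19662) also had 6 counts, 4 in replica 2 of uninduced C cells and 2 in replica 2 of induced P cells. The other libraries held 0 counts of these genes. Differences between conditions were not detectable at this depth, and no fold is given.

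Angiotensinogen was the adipokine gene with the strongest response to induction in C cells. Agt (NCBI gene 11606) had 26 and 24 counts in uninduced C cells, 44 and 57 in uninduced P cells, 810 and 842 in induced C cells, and 501 and 491 in induced P cells. In CPM these were 1.05 ± 0.0193, 2.19 ± 0.219, 32.7 ± 1.10 and 22.2 ± 1.07 (SD, n = 2). No 2 conditions overlap, and the order is C before P at day −2 and P before C at day 1. Induction raised Agt by a log2 ratio of 4.96 in C cells (SE 0.20, adjusted p = 6.2e-05) and of 3.34 in P cells (SE 0.18, adjusted p = 1.5e-04). The interaction was −1.61 (SE 0.25, adjusted p = 0.0403). It was lost without any library of C cells or of induced P cells (adjusted p = 0.171 to 0.307).

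Before induction Agt was called higher in P than in C cells, with a log2 ratio of 1.05 (SE 0.19, adjusted p = 0.0289), close to the ratio threshold. It fell below that threshold with library totals (0.86, adjusted p = 0.0470) and without replica 1 of uninduced P cells (0.96, adjusted p = 0.0234). It was not called without either uninduced C library (adjusted p = 0.253 and 0.231), nor when day −2 was fitted alone (0.379). In induced cells P against C had −0.56 (SE 0.16, adjusted p = 0.129).

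The gene for renin, which cleaves angiotensinogen, and the gene for the angiotensin AT2 receptor rose with it upon induction. Ren1 (NCBI gene 19701) had 1 and 1 counts in uninduced C cells, 0 and 0 in uninduced P cells, 814 and 752 in induced C cells, and 233 and 257 in induced P cells. Like Agt, it was higher in both induced C libraries than in both induced P libraries. In P cells it was at least 82.3-fold higher at day 1 than at day −2 (adjusted p = 1.5e-04), with the limit set at 3 counts per library, and in C cells the ratio of summed counts was 740, with a counting interval from 204 to 6113 (adjusted p = 7.4e-05). In induced cells P against C had a log2 ratio of −1.50 (SE 0.19, adjusted p = 0.0172).

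Agtr2 (NCBI gene 11609) had 0 and 1 counts in uninduced C cells, 0 and 3 in uninduced P cells, 399 and 244 in induced C cells, and 2189 and 1858 in induced P cells. It thus had the opposite order at day 1, with both P libraries above both C libraries, at a log2 ratio of 2.82 (SE 0.37, adjusted p = 0.0121). This call was lost without replica 2 of induced C cells (adjusted p = 0.149) and without either induced P library (0.143 and 0.132). Induction raised Agtr2 in C cells by a log2 ratio of 8.92 (SE 0.70, adjusted p = 3.1e-04), from 1 to 643 summed counts, and in P cells by 10.36 (SE 0.61, adjusted p = 1.8e-04), from 3 to 4047. The genes of the AT1 receptor, Agtr1a and Agtr1b, had at most 2 and 1 counts in a library.

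Chemerin, a chemoattractant that also acts on fat cells, was low in every condition and higher in uninduced P than in uninduced C cells. Rarres2 (NCBI gene 71660) had 4 and 3 counts in uninduced C cells, 19 and 55 in uninduced P cells, 18 and 8 in induced C cells, and 21 and 18 in induced P cells. The C libraries of day −2 are the lowest, the induced C and P libraries meet at 18 counts without overlapping in CPM, and the 2 libraries of uninduced P cells differ from each other. At day −2 the log2 ratio in P against C cells was 3.31 (SE 0.64, adjusted p = 0.0333), from 7 and 74 summed counts, a ratio of 10.8 with a counting interval from 4.97 to 27.7. The call was lost when day −2 was fitted alone (adjusted p = 0.176) and without either uninduced C library (0.276 and 0.308).

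Induction of C cells raised Rarres2 by a log2 ratio of 1.78 (SE 0.66, adjusted p = 0.0934). This call stood just inside the threshold and was lost in DESeq2 (adjusted p = 0.114), with library totals (0.132), without a filter (0.124) and without any C library or either induced P library (0.107 to 0.397). In P cells the log2 ratio was −0.78 (SE 0.53, adjusted p = 0.322), and at day 1 P against C cells had 0.75 (SE 0.56, adjusted p = 0.630). The interaction was −2.56 (SE 0.85, adjusted p = 0.258), and −2.98 without replica 1 of uninduced P cells. In the annotation of a later mouse build, GRCm38.p6, Rarres2 overlaps Lrrc61, which had between 88 and 260 counts. How the counting treated strand and overlapping genes is not given in the sources used here, so reads of the 2 genes cannot be told apart. The chemerin receptor genes Cmklr1, Gpr1 and Ccrl2 had at most 15, 1 and 8 counts in a library and were not tested.

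Angptl4, a target of PPAR factors and of glucocorticoids, was expressed throughout. Angptl4 (NCBI gene 57875) had 3744 and 3451 counts in uninduced C cells, 1462 and 2092 in uninduced P cells, 3565 and 3461 in induced C cells, and 2680 and 2562 in induced P cells. In CPM these were 151 ± 2.62, 76.2 ± 2.29, 139 ± 2.04 and 117 ± 3.59 (SD, n = 2). P cells were below C cells at either day, without overlap, and uninduced P cells were lowest. The log2 ratio of uninduced P against uninduced C cells was −0.99 (SE 0.12, adjusted p = 0.00742), just short of the ratio threshold and so not called. It was called with library totals (−1.18, adjusted p = 0.0069), without replica 1 of uninduced P cells (−1.01, adjusted p = 4.2e-04), with at least 10 counts in every library (−1.02) and without either induced C library (adjusted p = 0.0329 and 0.0331). At day 1 it was −0.25 (SE 0.12, adjusted p = 0.395).

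Upon induction the log2 ratio of Angptl4 was −0.12 in C cells (SE 0.12, adjusted p = 0.524) and 0.62 in P cells (SE 0.12, adjusted p = 0.0151), the latter below the ratio threshold. The interaction was 0.74 (SE 0.17, adjusted p = 0.129). It was called in DESeq2 (0.72, adjusted p = 0.00317), with library totals (1.03, adjusted p = 0.0706) and with at least 10 counts in every library (0.76, adjusted p = 0.0953). Without replica 1 or 2 of uninduced P cells the interaction of Angptl4 was 0.74 and 0.71. The gene of its target, lipoprotein lipase, moved in the other direction between P and C cells. Uninduced cells held 58.2 ± 0.660 (C) and 191 ± 12.3 (P) CPM of Lpl (NCBI gene 16956; SD, n = 2), and induced cells 130 ± 4.18 and 396 ± 29.2 CPM (SD, n = 2). Its log2 ratio in P against C cells was 1.72 at day −2 (SE 0.14, adjusted p = 0.0020) and 1.60 at day 1 (SE 0.14, adjusted p = 0.00339).

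Nampt, the enzyme that limits the rate of NAD synthesis from nicotinamide and is also found outside cells, was expressed in every library. Nampt (NCBI gene 59027) had 1091 and 961 counts in uninduced C cells, 303 and 1395 in uninduced P cells, 1356 and 965 in induced C cells, and 1416 and 1361 in induced P cells. In CPM, replica 1 of uninduced P cells had 16.1 and the other 7 libraries 38.4 to 63.5. It was called in none of the 4 comparisons, with log2 ratios of 0.10 and 0.91 for induction of C and P cells (adjusted p = 0.902 and 0.203) and of −0.38 and 0.43 for uninduced and induced P against C cells (adjusted p = 0.599 and 0.773), each with an SE of 0.46. These values depend on the pair of P libraries at day −2. Without replica 1 the ratio at day −2 was 0.22, and without replica 2 it was −1.42, where induction of P cells gave 1.95 and the interaction 1.85. With 1 library left, these fits take the spread from the other conditions and do not measure that of uninduced P cells. Nampt overlaps Gdap10 in GRCm38.p6, a gene with at most 21 counts in a library. Nmnat1, Nmnat2 and Nmnat3, for enzymes of the next step, were outside the rule for naming genes and are named after their values were seen. Upon induction Nmnat2 rose by log2 ratios of 2.42 in C cells (SE 0.20, adjusted p = 3.7e-04) and 1.63 in P cells (SE 0.19, adjusted p = 0.00201). Nmnat1 was not called, with −0.34 in C cells (SE 0.25, adjusted p = 0.359) and 0.10 in P cells (SE 0.25, adjusted p = 0.791). Nmnat3 had at most 10 counts in a library and was not tested.

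**Figure D2:**
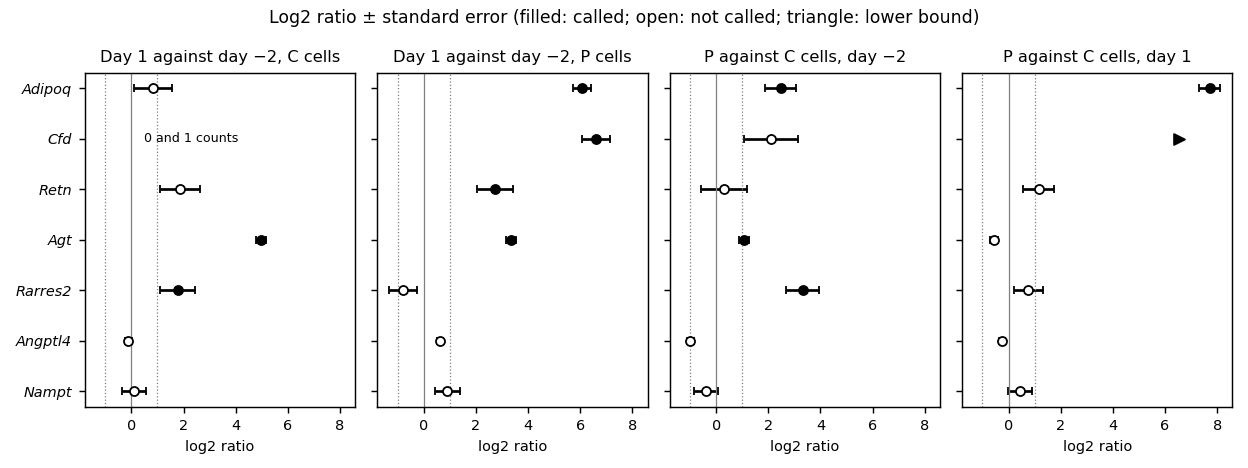
Log2 ratio of the 7 tested adipokine genes (horizontal axes) in the 4 comparisons, 1 panel each. Points are the ratios fitted by edgeR, and bars are SEs calculated from the F statistic of the test. Filled points are called genes and open points are not. The triangle is the lower bound for Cfd, and dotted lines mark the ratio threshold. Adipoq stands at 6.08 for induction of P cells and 7.71 for induced P against C cells, and Agt at 4.96 and 3.34 for induction of C and P cells.

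Over the 17 genes of adipokine receptors, written down together with the other lists by hand, 8 passed the filter. Induction called 2 higher and 1 lower in C cells and 3 higher and 1 lower in P cells, with median log2 ratios of −0.06 and 0.41. The gene called lower in both was C3ar1, the receptor of the complement fragment C3a, named after its values were seen, with 38 and 33 counts in uninduced C and 2 and 28 in uninduced P cells, and 0, 0, 1 and 0 counts in the induced C and P libraries. Cdh13, the gene of T-cadherin, which binds adiponectin, rose in C cells by a log2 ratio of 1.57 (SE 0.15, adjusted p = 7.0e-04), and in P cells by 1.51 (SE 0.15, adjusted p = 0.00113). Adipor2 rose in P cells by 1.52 (SE 0.21, adjusted p = 0.00373), from 51.8 ± 14.9 to 149 ± 1.31 CPM (SD, n = 2), and had 0.67 in C cells (SE 0.20, adjusted p = 0.0530), within the ratio threshold. Between P and C cells no receptor gene was called at day −2, and Agtr2 was called at day 1. The median ratios were −0.40 and 0.25. The count at day −2 rose without replica 2 of uninduced P cells, as did that over all genes. The leptin receptor gene Lepr had 2 to 46 counts and was called in no comparison.

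Of 25 genes for partners and processing of adipokines, 17 passed the filter. Induction called 6 higher in C cells and 5 higher in P cells and none lower, with medians of 0.97 and 0.61. The latter count rose without replica 2 of uninduced P cells and fell without replica 1 of induced P cells. The count over all genes did likewise. Between P and C cells 1 was higher and 1 lower at day −2, and 1 higher and 3 lower at day 1, with medians of −0.22 and −0.07. The higher gene was Lpl at either day. C3, the complement component whose activation adipsin promotes, had 6.42 ± 0.439 and 3.86 ± 0.491 CPM in uninduced C and P cells and 694 ± 84.0 and 138 ± 5.06 CPM at day 1 (SD, n = 2). It rose in both upon induction, by log2 ratios of 6.75 (SE 0.20, adjusted p = 6.2e-05) and 5.15 (SE 0.19, adjusted p = 8.4e-05), and was lower in induced P than in induced C cells, with a log2 ratio of −2.33 (SE 0.16, adjusted p = 0.00131). At that day the C libraries therefore held C3 RNA without a count of Cfd, while the P libraries held both.

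**Figure D3:**
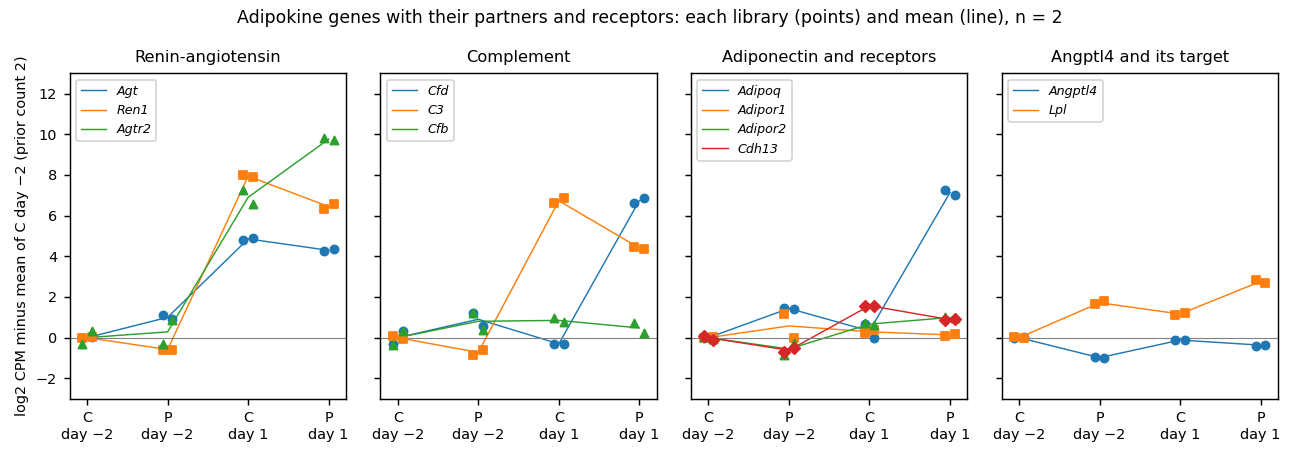
Adipokine genes beside the genes of their partners and receptors, as log2 CPM (prior count 2) minus the mean of uninduced C cells. Points are the 2 libraries of each condition and lines join the means, and Adipor1 and Cfb were added after their values were seen. Levels of different genes are not comparable, since each is set against its own level in uninduced C cells. Among induced cells, Ren1 and C3 are higher in C cells, and Agtr2, Cfd, Adipoq and Lpl are higher in P cells.

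Other secreted factors of fat tissue moved in both directions. Of 46 genes on that list 32 passed the filter. Induction called 9 higher and 5 lower in C cells (median 0.41), and 6 higher and 14 lower in P cells (median −0.53). Among genes with a mean of at least 50 counts, the acute phase genes Lcn2 and Orm1 had the largest rises in C cells. Lcn2, which encodes lipocalin 2, rose by log2 ratios of 9.83 in C cells (SE 0.38, adjusted p = 6.2e-05) and 7.56 in P cells (SE 0.33, adjusted p = 1.2e-04). Orm1, which encodes an orosomucoid, had 0 counts in uninduced C cells and was at least 43.5-fold higher at day 1 (adjusted p = 0.00563). Mest, an imprinted gene tied to fat cell size, rose in P cells by 5.49 (SE 0.32, adjusted p = 1.7e-04). It also rose in C cells, from −0.47 and 0.08 to 4.80 and 4.30 log2 CPM (prior count 2). Those that fell most upon induction were Spp1 (osteopontin), with −5.01 in C cells (SE 0.21, adjusted p = 6.2e-05) and −6.51 in P cells (SE 0.23, adjusted p = 8.4e-05), and the chemokine gene Ccl2, with −3.29 (SE 0.51, adjusted p = 0.00464) and −3.74 (SE 0.52, adjusted p = 0.00401).

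In P against C cells, 8 of these 32 genes were higher and 2 lower at day −2 (median 0.65), and 1 was higher and 7 lower at day 1 (median −0.52). The 10 became 1 when day −2 was fitted alone, where 81 of 12725 genes were called, and fell without either uninduced C library. The 8 of day 1 fell without either induced P library and rose without either uninduced P library. With these libraries left out, the counts over all genes did likewise. The genes of the list with the largest excess at day −2 and a mean of at least 50 counts were Hp (haptoglobin), with a log2 ratio of 4.32 (SE 0.29, adjusted p = 0.00142), and Wisp2, with 2.59 (SE 0.27, adjusted p = 0.00391). Wisp2 is expressed in preadipocytes, and its call was lost when day −2 was fitted alone (adjusted p = 0.102). C1qtnf1, which encodes a relative of adiponectin, was lower in P cells at either day, with −1.81 (SE 0.38, adjusted p = 0.0452) and −2.50 (SE 0.42, adjusted p = 0.0272). Angptl2, which encodes a relative of Angptl4, was lower at day −2, with −1.21 (SE 0.28, adjusted p = 0.0581). The calls of C1qtnf1 and Angptl2 at day −2 were lost when that day was fitted alone (adjusted p = 0.168 and 0.297) and without either C library of that day (0.254 and 0.318, and 0.315 and 0.307) or either induced C library (0.106 and 0.107, and 0.116 and 0.117). That of Angptl2 was also lost without either induced P library (0.139 and 0.140) and without replica 2 of uninduced P cells (−0.83), and that of C1qtnf1 at day 1 without either C library of that day or replica 2 of P cells (0.137 to 0.183). At day 1 Cxcl12, a chemokine gene, was higher, with 1.88 (SE 0.13, adjusted p = 0.00131), and Apln (apelin) lower, with −2.26 (SE 0.32, adjusted p = 0.0156), a call lost without replica 2 of C cells or either induced P library (0.110 to 0.189).

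The transcription factors known to act on adipokine genes include PPARγ, the C/EBP family, FoxO1 and the glucocorticoid receptor. Of 21 such genes 20 passed the filter. Induction called 7 higher in C and 5 higher in P cells, none lower, with medians of 0.82 and 0.31. In P against C cells 4 were higher at day −2 and none at day 1, with medians of 0.49 and −0.14. The 4 became 0 when day −2 was fitted alone, where 81 of 12725 genes were called. The count fell without replica 1 of uninduced C cells and rose without replica 2 of uninduced P cells. The count over all genes did likewise. Cebpa, which encodes the C/EBPα factor, had 19 and 19 counts in uninduced C and 141 and 95 in uninduced P cells, and 410 to 425 in the 4 libraries of day 1. It was higher in uninduced P cells by a log2 ratio of 2.75 (SE 0.41, adjusted p = 0.0131), and Cebpd by 2.63 (SE 0.34, adjusted p = 0.00819). At day 1 they had 0.14 (SE 0.34, adjusted p = 0.924) and 0.10 (SE 0.31, adjusted p = 0.940), while Adipoq and Cfd differed. The calls at day −2 were lost when that day was fitted alone (adjusted p = 0.171 and 0.132), that of Cebpa also without either C library (0.161 and 0.145) and that of Cebpd without replica 1 of C cells (0.119). Pparg rose upon induction in P cells by 1.89 (SE 0.27, adjusted p = 0.00433), from 16.7 ± 6.40 to 62.0 ± 2.09 CPM (SD, n = 2), and had 0.96 in C cells (SE 0.26, adjusted p = 0.0369), within the ratio threshold. At day 1 P against C cells had 0.72 for Pparg (SE 0.26, adjusted p = 0.228). Foxo1 rose in P cells by 1.85 (SE 0.16, adjusted p = 7.1e-04). It also rose in C cells, from 2.40 and 2.42 to 5.08 and 5.04 log2 CPM (prior count 2). Cebpa and Cebpd rose in C cells by 4.37 (SE 0.41, adjusted p = 6.9e-04) and 3.02 (SE 0.34, adjusted p = 0.00137).

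Most markers of fat cells were higher in induced P than in induced C cells, as Adipoq and Cfd were. The 12 markers all passed the filter, and in P against C cells 5 were higher at day −2 and 8 at day 1, and none lower, with medians of 1.11 and 2.96. The 5 became 2 when day −2 was fitted alone, where 81 of 12725 genes were called. The 5 fell without either uninduced C library and the 8 without any of the 4 induced libraries, as did the counts over all genes. Induction called 5 higher and 2 lower in C cells (median 0.31), and 10 higher and 1 lower in P cells (median 1.95). The latter 11 became 6 when the P libraries were fitted alone, where 1213 of 12670 genes were called. They fell without either induced P library, as did the count over all genes. Cidec, a lipid droplet gene, had 4 and 4 counts in uninduced C cells, 6 and 12 in uninduced P cells, 15 and 11 in induced C cells, and 627 and 556 in induced P cells, and so shared with Adipoq the high level of induced P cells. Induction of P cells raised it by a log2 ratio of 6.10 (SE 0.27, adjusted p = 1.3e-04) and raised Gpd1, an enzyme of glycerolipid synthesis, by 4.85 (SE 0.25, adjusted p = 1.3e-04). The marker that fell in P cells was Fasn, the fatty acid synthase gene, from 1227 ± 535 to 602 ± 30.8 CPM (SD, n = 2), with −1.03 (SE 0.29, adjusted p = 0.0465). This call was lost with library totals (−0.80), without replica 1 of uninduced P cells (−0.51), when the P libraries were fitted alone (adjusted p = 0.189) and without either induced P library (0.234 and 0.205). In C cells the markers that rose most were Lipe, the hormone-sensitive lipase gene, with 2.23 (SE 0.21, adjusted p = 7.0e-04), and Dgat2, an enzyme of triglyceride synthesis, with 2.16 (SE 0.38, adjusted p = 0.0076). Those that fell were Fabp4 and, named after its values were seen, the glucose transporter gene Slc2a4, with 5 and 4 counts in uninduced and 0 and 0 in induced C cells. Plin1, which coats lipid droplets, had 1 and 2 counts in uninduced C and 91 and 47 in uninduced P cells, and 3 and 1 in induced C and 362 and 271 in induced P cells. Unlike Adipoq, it was therefore well detected in uninduced P cells, with a ratio of summed counts of 46.8 and a counting interval from 15.7 to 230 at day −2 (adjusted p = 0.0109) and of 178 with an interval from 69.2 to 656 at day 1 (adjusted p = 0.00505). The call of day −2 was lost when that day was fitted alone (adjusted p = 0.129) and without either C library (0.150 and 0.116). Cd36, which takes up fatty acids, had 4 and 5 counts in uninduced C and 21 and 140 in uninduced P cells, and 6 and 4 in induced C and 332 and 269 in induced P cells. It was higher in P cells by a log2 ratio of 4.00 at day −2 (SE 0.78, adjusted p = 0.0350) and 6.04 at day 1 (SE 0.78, adjusted p = 0.0113). The first call was lost when day −2 was fitted alone (adjusted p = 0.224) and without either uninduced C library (0.288 and 0.256), and the second without any of the 4 induced libraries (0.101 to 0.152). Fabp4, a fatty acid carrier, had 52 and 53 counts in uninduced C cells, 534 and 555 in uninduced P cells, 20 and 35 in induced C cells, and 1576 and 1591 in induced P cells, and was called in all 4 comparisons. It was higher in P cells before induction by a log2 ratio of 3.44 (SE 0.30, adjusted p = 0.00242) and after it by 6.01 (SE 0.34, adjusted p = 9.2e-04). Induction raised Fabp4 in P cells by 1.56 (SE 0.27, adjusted p = 0.0090) and lowered it in C cells, with −1.01 (SE 0.32, adjusted p = 0.0602), at the ratio threshold. The call in C cells was lost without a filter and without replica 1 of uninduced P cells (−0.99 in both), and without either uninduced C library, replica 1 of induced C cells or either induced P library (adjusted p = 0.111 to 0.267). The summed level of the 12 markers ranged from 990 to 1959 CPM and was highest in replica 1 of uninduced P cells, where Fasn alone had 1605 CPM. Summed without Fasn, which was chosen after seeing the data, the other 11 markers had 256 to 412 CPM in the 6 libraries of the other conditions and 818 and 789 CPM in induced P cells. Lpl alone made up 417 and 375 CPM of the sums in induced P cells, and 183 and 200 CPM in uninduced P cells. The part of a different number of maturing fat cells in the levels of Adipoq and Cfd was not tested.

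**Figure D4:**
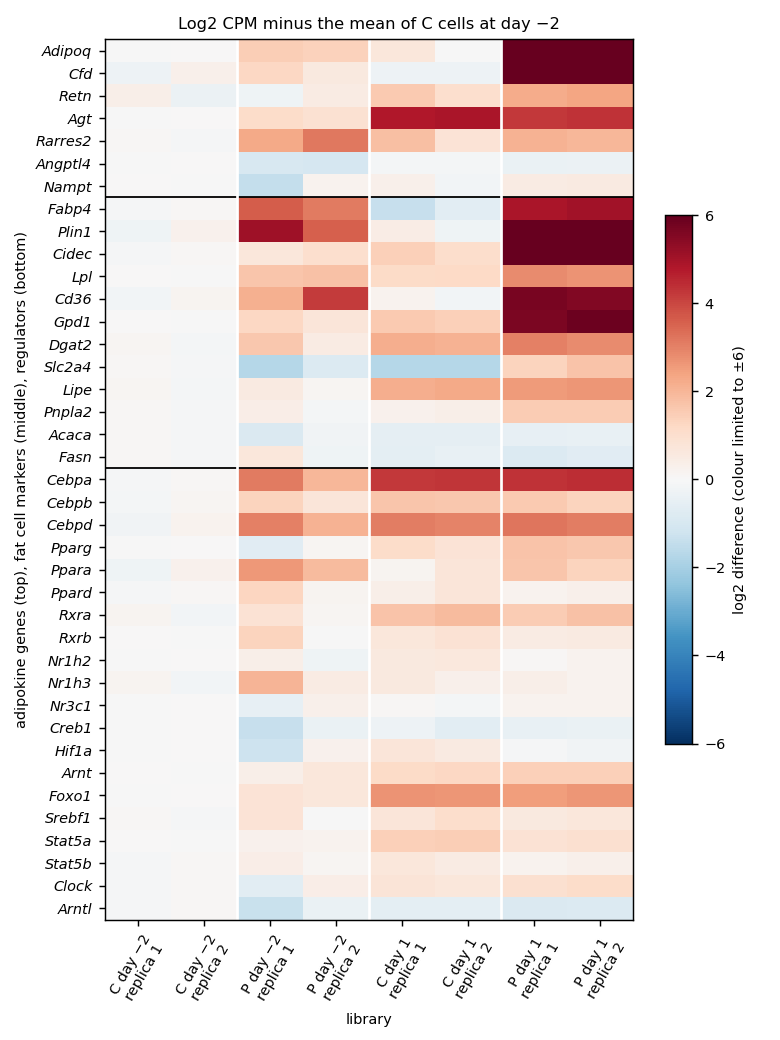
The 7 tested adipokine genes (top), the 12 fat cell markers (middle) and the regulators of adipokine genes (bottom) in the 8 libraries, with colour for log2 CPM (prior count 2) minus the mean of uninduced C cells, limited to −6 and 6. Adipoq, Cfd and Cidec share the high level of the 2 induced P libraries, while Agt and Cebpa are high in all 4 libraries of day 1.

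The genes whose log2 CPM was most like that of an adipokine gene over the 8 libraries were taken from 10903 genes with a mean of at least 50 counts, as a description with few points that share the same libraries. Adipoq and Cfd were each other's nearest gene (Pearson's r = 0.991), followed for Adipoq by Arhgap44 (0.982) and Cidec (0.981), and for Cfd by Arhgap44 (0.991) and Rufy3 (0.975). Arhgap44 had 9.81 ± 0.155, 11.5 ± 2.54, 10.0 ± 0.0349 and 32.0 ± 0.990 CPM (SD, n = 2) in uninduced C and P and induced C and P cells, and so was well detected in every condition, while Adipoq had at most 7 counts in a library outside induced P cells. The nearest genes to Agt were Nid2 (r above 0.999), Socs2 (0.996) and Sphk1 (0.996), those to Angptl4 were Mn1 (0.993), Itga6 (0.986) and Mipol1 (0.984), and those to Nampt were 1110059G10Rik (0.997), Zfp874b (0.994) and Tmed10 (0.991). The 3 genes nearest to Nampt follow a level that was lowest in replica 1 of uninduced P cells.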

How the data were processed

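Reads from the Ion Torrent system were cleaned by the authors (FASTX-Toolkit), mapped with TopHat2 2.0.9 on mm9, and counted for each NCBI gene of UCSC refGene in R. The deposited values are these whole-number counts, without normalization. The handling of strand and multiple mapping is not given in the sources used here. Symbols came from a RefSeq list of GRCm38.p6 (84 of the IDs had none). Its lengths are genomic spans, so levels were not compared between genes.

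Tests used edgeR 4.0.16 in R 4.3.3 (filterByExpr, TMM, quasi-likelihood test of all 8 libraries with 1 mean per condition, two-sided, Benjamini-Hochberg adjustment over all genes tested) and limma 3.58.1. The SE of a log2 ratio was calculated as its absolute value divided by the square root of the F statistic of the test. At few counts this SE can be smaller than counting error alone. Ratios of summed counts carry exact Clopper-Pearson 95% intervals. The procedure was run on simulated data in which every condition had the same spread. The simulation therefore does not show how the test behaves with the wider spread of uninduced P cells. Alternatives were DESeq2 1.42.0, other scalings, filters, thresholds and sets of libraries, and the replicate block. Blocks with crossed numbers were chosen after seeing the data. The adipokine genes and the lists were chosen with earlier results of these data known. Named from each list, per comparison, are the called genes with the 2 largest log2 ratios in either direction, given a mean of at least 50 counts and no overlap between replicas. Other genes are marked as named after their values were seen or were given as receptors near 0. The values of 1 gene on the list of partners and processing, which is counted there, are not reported here.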

Additional observations from a re-analysis of the deposited data

Results flagged for a closer look

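Induction had an effect that was not the same in P as in C cells for 2 adipokine genes and for 10 of the listed genes named in the text, by edgeR's interaction test at an adjusted p under 0.1. Adipoq responded more in P cells, by 5.24 on the log2 scale (SE 1.08, adjusted p = 0.0939), and rests on 2 and 4 summed counts in C cells. Agt responded less in P cells, by −1.61 (SE 0.25, adjusted p = 0.0403), and was raised by induction in both. Of the partners, C3 responded less in P cells, by −1.61 (SE 0.23, adjusted p = 0.0328). Of the 8 other secreted factors called lower, Spp1 had −1.50 (SE 0.26, adjusted p = 0.0510), Hp −4.91 (SE 0.35, adjusted p = 0.00399), Wisp2 −4.01 (SE 0.38, adjusted p = 0.00749) and Apln −2.33 (SE 0.43, adjusted p = 0.0656). Of the regulators, Cebpa had −2.61 (SE 0.52, adjusted p = 0.0836) and Cebpd −2.53 (SE 0.45, adjusted p = 0.0617). Of the 4 fat cell markers that responded more in P cells, Fabp4 had 2.57 (SE 0.42, adjusted p = 0.0462), Cidec 4.51 (SE 0.50, adjusted p = 0.0130) and Gpd1 3.26 (SE 0.34, adjusted p = 0.0110). The interactions of Hp and Wisp2 were called with any 1 library left out. Those of Adipoq, Agt, C3, Spp1, Apln, Cebpa, Cebpd, Fabp4 and Cidec were not called without either uninduced C library or either induced P library, and that of Gpd1 without replica 1 of uninduced C cells or replica 2 of induced P cells (adjusted p = 0.106 and 0.102). Without either induced C library, those of Adipoq, Agt, C3, Spp1, Apln, Cebpa and Cebpd were not called either, and that of Fabp4 was not called without replica 1. Over these cases the adjusted p ranged from 0.102 to 0.604. With library totals in place of TMM, those of C3 and Spp1 were not called (−1.33 and −1.22, adjusted p = 0.103 and 0.185).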

How the results depend on the processing

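The number of adipokine genes called was 2, 4, 3 and 2 for induction of C cells, induction of P cells, uninduced P against C cells and induced P against C cells, and 2 for the interaction. For induction of C cells it was 1 with library totals, in DESeq2, without a filter, with at least 10 counts in every library, with the own conditions only, at an adjusted p under 0.05 and with the replicate block, also when crossed for the induced P libraries. For induction of P cells it was 1 with at least 10 counts in every library, and for induced P against C cells it was 0 there, since Adipoq and Cfd were not tested under that filter. For uninduced P against C cells it was 0 with the own conditions only. For the interaction it was 4 in DESeq2 (Adipoq, Agt, Angptl4 and Cfd), 1 without a filter, 1 at an adjusted p under 0.05, 0 with the replicate block, 0 with the P numbers crossed and 1 with those of every induced library crossed. Leaving out 1 library at a time, the counts ranged from 1 to 3, 3 to 5, 0 to 5, 2 to 2 and 0 to 5. A condition left with 1 library was assumed to vary like the others. At day −2 the count was lowest without either C library and highest without replica 2 of P cells, as was the count over all genes.

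Directions turned only in values that were not called in the fit of all libraries. The log2 ratio of Nampt upon induction of C cells was −0.012 with library totals. With a library left out, it ranged from −0.13 to 0.33, Adipoq upon induction of C cells from −0.041 to 1.40, Cfd upon induction of C cells, at 0 and 1 counts, from −3.22 to 0, Retn in P against C cells at day −2 from −0.60 to 1.13, and Nampt at day −2 from −1.42 to 0.22. Library totals turned no called adipokine gene.

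The deviations of libraries with the same replica number correlated over 0.1 in 1 of the 6 pairs of conditions, uninduced C and P cells (0.21). The correlations of the other pairs were negative, from −0.36 to −0.05, so the numbers were not taken to pair the libraries. The replicate block ended the calls of Adipoq in uninduced P against C cells (adjusted p = 0.102), of Rarres2 upon induction of C cells (0.147) and of Adipoq and Agt in the interaction (0.165 and 0.117). Of the other genes named, it ended the calls of C1qtnf1 at day −2 (0.105), of Fasn upon induction of P cells (log2 ratio −0.99) and of C3, Spp1, Cebpa, Cebpd and Fabp4 in the interaction (0.108, 0.137, 0.176, 0.134 and 0.117). With it, the genes called over the whole table numbered 2484, 2084, 597, 386 and 117, against 2723, 2406, 931, 542 and 316 without it. Other changes of over 1.5 times in these counts were, for the 4 comparisons in order, 4743, 4192, 1513 and 820 without a ratio threshold. With the own conditions only, they were 1213 for induction of P cells, 81 at day −2 and 899 at day 1. At an adjusted p under 0.05 they were 602 at day −2 and 174 for the interaction, which had 930 in DESeq2 and 148 with the P numbers crossed. With a library left out they ranged from 1664 to 3329, 1248 to 5000, 188 to 4380, 63 to 994 and 32 to 8395, the highest for induction of P cells, day −2 and the interaction without replica 2 of P cells at day −2. Depth limits Lep, Rbp4, Retn and uninduced Adipoq and Cfd to a few counts.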
